A study of Mus musculus with 6 samples.

Results

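The genes of sterol and fatty acid synthesis were followed in mouse acute myeloid leukaemia cells after 24 h with DB2313, a small molecule described as an inhibitor of the transcription factor PU.1. The list holds 45 genes by symbol: 18 enzymes of sterol synthesis, 17 enzymes of fatty acid synthesis, elongation, desaturation and activation, and 10 regulators, carriers and exporters. Members were chosen by gene symbol from array rows annotated with that symbol alone, and 40 of the 45 had such a row, out of 22180 genes measured. These were 16 sterol enzymes, 14 fatty acid enzymes and all 10 regulators, carriers and exporters. Acat2, Idi1, Scd2, Acsl1 and Acsl3 had no row of their own and are not analysed here. Where a gene had several rows the brightest over the 6 arrays was used, which applied to Scap only. The list is not a full account of either pathway.

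Both groups were the PU.1low URE-/- line, which was derived from a leukaemic mouse lacking URE, the upstream enhancer element of the PU.1 gene Spi1, so cells with and without the inhibitor carried the same deletion. One group of 3 arrays came from cells given DB2313 at 330 nM for 24 h, and the other group of 3 arrays from cells given an equal volume of water as vehicle for 24 h. The line came from a single animal, and the arrays are labelled biological replicates without stating whether the cultures were started separately, so p-values measure the spread between these arrays. All cells grew in medium with fetal bovine serum and conditioned supernatants. Serum brings lipoprotein cholesterol and fatty acids, and no lipid-depleted culture was among the samples.

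Cells build cholesterol from acetyl-CoA through mevalonate, squalene and lanosterol, and fatty acids from acetyl-CoA through malonyl-CoA, after which elongases and desaturases remodel the chain. The SREBP transcription factors, made by Srebf1 and Srebf2, switch on most enzymes of both pathways when sterols in the endoplasmic reticulum are low. The escort protein Scap carries them to the Golgi for cleavage, and the Insig proteins hold Scap back when sterols are plentiful. The liver X receptors work in the opposite sense, since oxysterols activate them to raise the exporters Abca1 and Abcg1 and also Srebf1. Leukaemic blasts make and take up both kinds of lipid to build membranes.

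Each comparison was DB2313 against vehicle on log2 signals, where a difference of 1 is a doubling, tested in limma with Benjamini-Hochberg adjustment over all 22180 genes. A gene passed at an adjusted p under 0.05. Of the 40 measured members 4 passed, or 10.0%, against 1.81% of all genes. The members were chosen with earlier results of these data known, so their share is only a description. Tm7sf2 and Elovl6 were the 2 that rose, and Thrsp and Hmgcs1 the 2 that fell, beside 1.02% of all genes passing as higher and 0.789% as lower. The other 36 members did not pass. In RNA from whole cultures, fewer cells with a transcript and less of it per cell cannot be told apart. Most members had bright rows: 36 of 40 lay above the median signal of all genes, and of all genes above that median 3.36% passed. The median absolute log2 difference was 0.12 over the 40 members and 0.08 over all genes.

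The promoters of the 4 genes that passed are shown because the compound is aimed at a DNA-binding factor and because SREBP-bound promoters carry recognisable elements. Each sequence runs 5′ to 3′ on the gene's strand, from 250 bases before to 50 bases after the RefSeq start on GRCm38.p6. Capitals mark matches, on either strand, to 5 motifs: TCACNCCAC, a sterol regulatory element type; CACNCCAC, a shorter form contained in it; CCAAT, the core of the NF-Y box that accompanies many SREBP sites; CACGTG, an E-box; and GAGGAAG, a core of PU.1 type.
Hmgcs1 (chr13:119690101-119690400, plus strand): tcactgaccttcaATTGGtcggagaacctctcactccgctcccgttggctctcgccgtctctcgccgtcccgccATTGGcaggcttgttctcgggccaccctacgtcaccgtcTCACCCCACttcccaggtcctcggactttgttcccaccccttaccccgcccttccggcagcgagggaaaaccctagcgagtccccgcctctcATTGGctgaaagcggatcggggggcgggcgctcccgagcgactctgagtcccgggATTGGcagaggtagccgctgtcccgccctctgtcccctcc
Tm7sf2 (chr19:6067801-6068100, minus strand): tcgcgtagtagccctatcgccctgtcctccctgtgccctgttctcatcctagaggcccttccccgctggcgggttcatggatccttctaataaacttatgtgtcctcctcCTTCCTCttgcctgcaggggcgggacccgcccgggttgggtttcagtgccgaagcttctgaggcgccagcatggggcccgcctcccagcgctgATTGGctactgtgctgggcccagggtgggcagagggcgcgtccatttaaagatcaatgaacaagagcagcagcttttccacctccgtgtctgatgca
Elovl6 (chr3:129532136-129532435, plus strand): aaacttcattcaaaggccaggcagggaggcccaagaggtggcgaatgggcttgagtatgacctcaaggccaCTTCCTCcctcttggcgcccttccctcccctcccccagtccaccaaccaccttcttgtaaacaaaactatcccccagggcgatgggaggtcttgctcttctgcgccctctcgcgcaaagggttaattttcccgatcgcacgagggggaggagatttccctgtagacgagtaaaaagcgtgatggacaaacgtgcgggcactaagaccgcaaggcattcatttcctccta
Thrsp (chr7:97417501-97417800, minus strand): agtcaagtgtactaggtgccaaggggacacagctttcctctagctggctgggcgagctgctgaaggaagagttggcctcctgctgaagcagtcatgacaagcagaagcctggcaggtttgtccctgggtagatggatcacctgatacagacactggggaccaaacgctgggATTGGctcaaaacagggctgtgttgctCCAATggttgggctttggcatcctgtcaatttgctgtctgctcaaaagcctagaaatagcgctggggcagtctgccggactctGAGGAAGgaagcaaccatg

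The Hmgcs1 window held 1 match to the sterol element, 137 bases before the start, and 4 matches to CCAAT, the last lying after the start. The sterol element was found in 1.24% of the 32851 promoters in the RefSeq table and in 2 of the 43 promoters of measured members, those of Hmgcs1 and Mlxipl. The Tm7sf2 window held 1 CCAAT match and 1 match to GAGGAAG on the opposite strand, 140 bases before the start. The Elovl6 window held 1 match to GAGGAAG, also on the opposite strand, 179 bases before the start, and none to the other 4 motifs. The Thrsp window held 2 CCAAT matches and 1 match to GAGGAAG, the last lying after the start. GAGGAAG was found in 13.6% of all promoters and in 10 of the 43 member promoters, the shorter form CACNCCAC in 6.24% and 5 of 43, and CACGTG in 7.15% and 9 of 43. CCAAT was found in 37.4% of all promoters and in 27 of the 43 member promoters, made up of 13 of 16 for sterol enzymes, 7 of 13 for fatty acid enzymes and 7 of 14 for regulators, carriers and exporters. Promoters were available for 33 of the 40 measured members, some with several starts. A match is a description of the letters and shows no binding.

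The sterol-sensing regulators did not pass the test, and their groups mostly overlapped. Srebf2, the SREBP gene tied most closely to cholesterol synthesis, had 9.05, 9.13 and 9.19 with DB2313 against 9.06, 9.25 and 9.10 with vehicle. The log2 difference was -0.01 with a 95% interval from -0.19 to 0.16. Srebf1, the SREBP gene tied most closely to fatty acid synthesis, had 7.28, 7.33 and 7.39 with DB2313 against 7.35, 7.61 and 7.53 with vehicle. Its groups overlapped through 1 vehicle array, and the log2 difference was -0.16 (interval -0.35 to 0.03, adjusted p = 0.475). Scap had 8.88, 8.90 and 8.95 with DB2313 against 8.73, 8.78 and 8.84 with vehicle, so the groups did not overlap, with a log2 difference of 0.12 (interval -0.02 to 0.27, adjusted p = 0.467). The second Scap row was much dimmer and had a log2 difference of 0.02.

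Insig1, which is itself an SREBP target and retains Scap in the endoplasmic reticulum, had 8.59, 8.83 and 8.58 with DB2313 against 8.48, 8.59 and 8.24 with vehicle. The groups overlapped by 1 array each, and the log2 difference of 0.23 had an interval from -0.02 to 0.49 (adjusted p = 0.445). Insig2, its relative with the same retaining role, had 6.60, 6.73 and 6.65 with DB2313 against 6.59, 6.86 and 6.67 with vehicle, and a log2 difference of -0.05 (interval -0.24 to 0.15). Stard4, a soluble carrier that moves cholesterol between membranes and an SREBP target, had 7.33, 7.62 and 7.47 with DB2313 against 7.28, 7.41 and 7.27 with vehicle. Its groups overlapped, with a log2 difference of 0.15 (interval -0.05 to 0.36).

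Of the regulators of fatty acid synthesis, Thrsp fell and Mlxipl did not pass. Thrsp encodes Spot 14, a small protein that promotes lipogenesis in liver, fat and mammary gland. It had 6.46, 6.49 and 6.40 with DB2313 against 6.86, 6.82 and 6.85 with vehicle. The 3 DB2313 arrays all lay below the 3 vehicle arrays, with a log2 difference of -0.39 (SE 0.06, adjusted p = 0.0203), or 1.31-fold lower. The call was lost whichever single array was dropped (adjusted p 0.0683 to 0.0985). Mlxipl, which encodes the glucose-responsive factor ChREBP, had a log2 difference of 0.03 (interval -0.14 to 0.20) with overlapping groups.

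Neither of the sterol exporters passed. Abcg1, which hands cholesterol to mature high-density lipoprotein, had 6.98, 7.39 and 7.14 with DB2313 against 6.28, 6.83 and 6.88 with vehicle. All 3 DB2313 arrays lay above the vehicle arrays, and the log2 difference was 0.51 (interval 0.10 to 0.91), but the vehicle arrays were widely spread and the adjusted p was 0.271. Without vehicle replicate 1, the lowest array, the log2 difference was 0.31. Abca1, which loads cholesterol onto lipid-poor apolipoprotein, had 4.16, 3.98 and 4.18 with DB2313 against 4.22, 4.03 and 4.09 with vehicle, a log2 difference of -0.01 (interval -0.19 to 0.18). Its mean signal stood at the 29.4th percentile of all genes, where a fold change can be understated. The difference between the exporters was not tested.

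**Figure D1:**
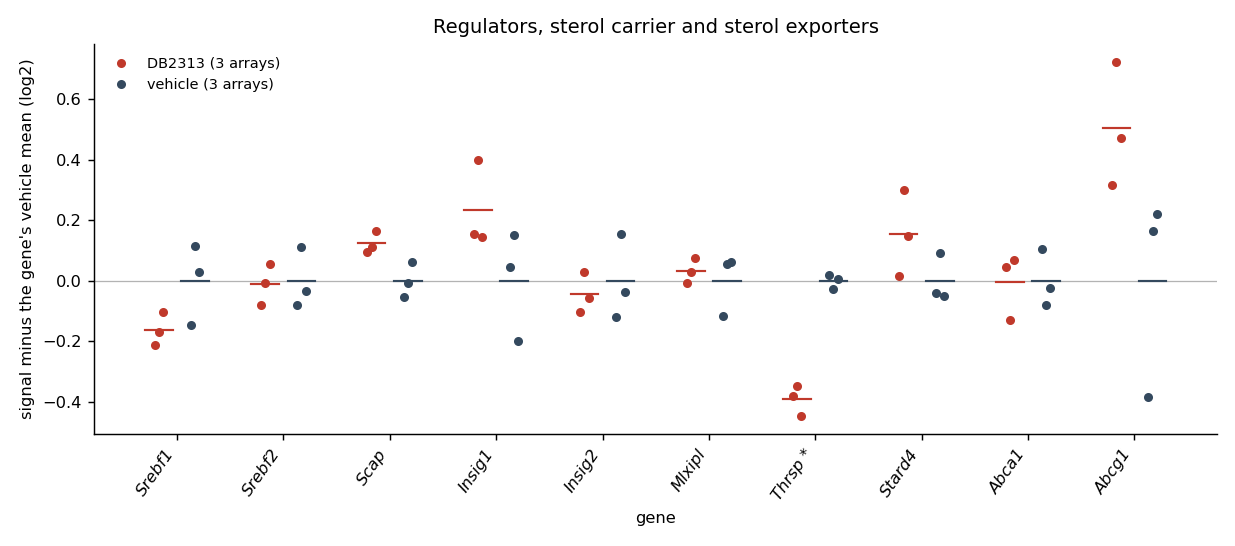
Signal on each array minus the gene's own vehicle mean (log2, vertical axis) for the 10 regulators, carriers and exporters (horizontal axis); points are single arrays, bars are group means of 3 arrays, red is DB2313, dark blue is vehicle, and an asterisk marks an adjusted p under 0.05. Only Thrsp carries an asterisk, with DB2313 arrays 0.39 lower on average, and Abcg1 shows the widest vehicle spread.

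Sterol synthesis enzymes went both ways after DB2313. Of 16 measured enzymes Tm7sf2 rose, Hmgcs1 fell and 14 did not pass. The median log2 difference of the 16 was -0.09, against -0.0024 for all genes, with 9 below 0 and 7 above. The median was -0.04 without vehicle replicate 2 and -0.05 without DB2313 replicate 3. At an unadjusted p under 0.05 there were 5 lower and 2 higher enzymes, where 6.16% of all genes were lower and 6.51% higher. DB2313 arrays lay entirely below vehicle arrays for 6 enzymes and entirely above for 3, where 9.55% of all genes lay below and 9.75% above. All 16 enzymes lay above the median signal of genes, while these shares include dim genes. Levels are compared only within a gene here, since rows of different genes differ in probe response.

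Hmgcs1 encodes the cytosolic synthase that joins acetyl-CoA and acetoacetyl-CoA, an early committed step of the mevalonate route and a standard SREBP target. Its signal was 9.15, 9.23 and 9.17 with DB2313 against 9.51, 9.64 and 9.49 with vehicle. The DB2313 arrays lay together, below all vehicle arrays. The log2 difference was -0.37 (SE 0.07, adjusted p = 0.0420), or 1.29-fold lower. The call was lost when any single array was left out (adjusted p 0.0910 to 0.159) and with each array centred on its median (adjusted p = 0.0537). Its promoter held the sterol element and 4 CCAAT matches, and a link between these and the fall was not tested.

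Tm7sf2 encodes a sterol reductase of the endoplasmic reticulum that acts right after the lanosterol demethylase Cyp51. Its signal was 7.52, 7.38 and 7.59 with DB2313 against 6.80, 6.91 and 6.82 with vehicle. Every DB2313 array lay well above every vehicle array, and the gap between the groups exceeded the range within either. The log2 difference was 0.65 (SE 0.08, adjusted p = 0.00751), or 1.57-fold higher. The gene passed with any single array dropped (adjusted p 0.0164 to 0.0455). Tm7sf2 ranked 101st by p among all genes and had the smallest p of the 40 members.

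None of the remaining measured steps of the mevalonate branch passed in the main fit. Mvd, which makes isopentenyl diphosphate, had 7.32, 7.21 and 6.99 with DB2313 against 7.48, 7.49 and 7.51 with vehicle. Its DB2313 arrays were all lower but spread widely, and the log2 difference of -0.32 (SE 0.09) did not pass (adjusted p = 0.170). With a trended and robust prior Mvd had an adjusted p of 0.0482. Mvk and Pmvk, the kinases that phosphorylate mevalonate, had log2 differences of -0.12 and 0.03, neither past the threshold. The DB2313 arrays of Mvk all lay below its vehicle arrays, while the groups of Pmvk overlapped. Fdps, which makes farnesyl diphosphate for sterols and for protein prenylation, had 8.50, 8.58 and 8.60 with DB2313 against 8.43, 8.59 and 8.50 with vehicle, so the groups overlapped, and its log2 difference was 0.05 (interval -0.10 to 0.21).

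At the branch point into sterols none passed. Fdft1, the squalene synthase, had a log2 difference of 0.11 (interval -0.05 to 0.27) with groups that did not overlap. Sqle, the squalene epoxidase and a slow step of the pathway, had 7.87, 8.02 and 7.83 with DB2313 against 7.95, 8.10 and 7.91 with vehicle. Those values were interleaved, with a log2 difference of -0.08 (interval -0.27 to 0.11). Lss, which closes the ring system to give lanosterol, had 7.02, 7.23 and 7.31 with DB2313 against 6.99, 7.08 and 6.99 with vehicle, a log2 difference of 0.17 (interval -0.03 to 0.36) that 1 low DB2313 array brought into overlap.

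Cyp51, the lanosterol demethylase directly before the Tm7sf2 step, had 6.34, 6.55 and 6.32 with DB2313 against 6.65, 6.81 and 6.72 with vehicle. All DB2313 arrays lay below the vehicle arrays, yet the log2 difference of -0.32 (SE 0.08) did not pass over all genes (adjusted p = 0.145). In a fit restricted to genes above the median signal its adjusted p was 0.0473. These neighbouring steps had values on opposite sides of 0, 0.65 for Tm7sf2 and -0.32 for Cyp51, of which only the first passed. Among the enzymes that remove methyl groups from the ring, Msmo1 had a log2 difference of -0.17, Nsdhl 0.08 and Hsd17b7 -0.10. For the last conversions Ebp, the sterol isomerase, had -0.15, Sc5d, the sterol desaturase, 0.16, and Dhcr7, the final reductase, -0.10. Dhcr7 had 8.68, 8.66 and 8.57 with DB2313 against 8.63, 8.81 and 8.75 with vehicle, and these overlapped. The groups of Msmo1, Ebp and Sc5d did not overlap, while their adjusted p lay between 0.329 and 0.382.

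**Figure D2:**
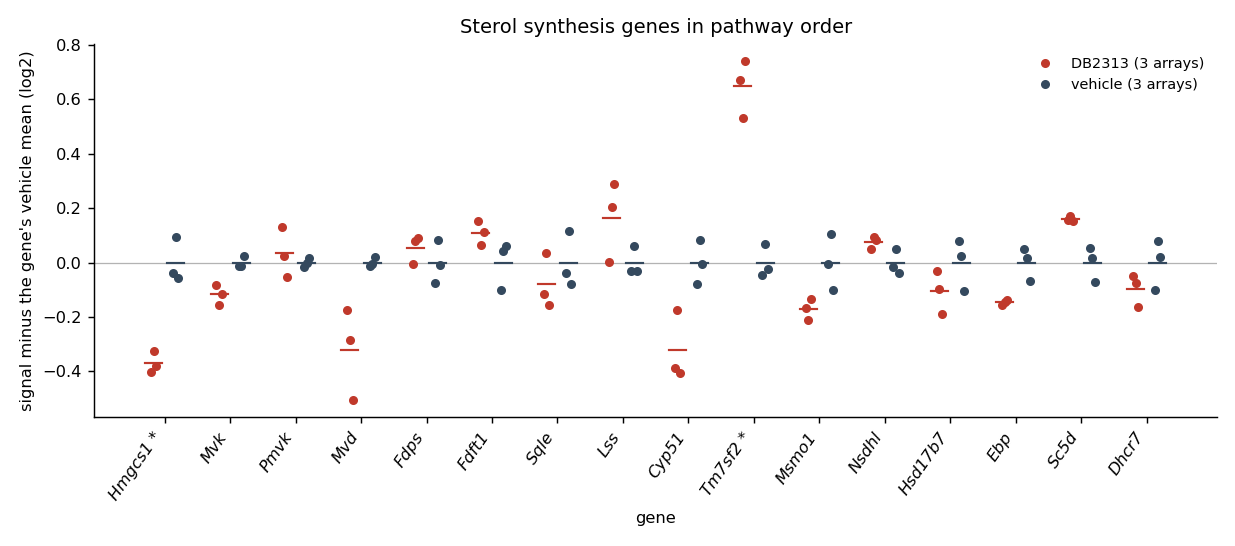
Signal on each array minus the gene's own vehicle mean (log2, vertical axis) for the 16 measured sterol synthesis enzymes in pathway order (horizontal axis); points are single arrays, bars are means of 3 arrays, red is DB2313, dark blue is vehicle, and asterisks mark an adjusted p under 0.05. Tm7sf2 stands 0.65 above its vehicle mean, Hmgcs1, Mvd and Cyp51 stand 0.32 to 0.37 below theirs, and most other enzymes lie near 0.

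Arrays also differed within groups. For 9 of the 40 members the array numbered 2 was the highest of its group in both groups, where this held for 13.2% of all genes. The 9 were Hmgcs1, Sqle, Cyp51, Nsdhl, Insig1, Insig2, Stard4, Elovl5 and Acsl4. For arrays numbered 1 and 3 it held for 3 members each, beside 10.2% and 11.9% of all genes. The array numbered 1 was the lowest of its group in both groups for 9 of the 40 members, 6 of them among the 10 regulators, carriers and exporters, beside 14.0% of all genes. These patterns were singled out after their values were seen, and the labels do not say what a shared number means.

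Fatty acid synthesis enzymes had a median log2 difference of 0.11 over 14 genes, against -0.0024 for all genes, with 8 above 0 and 6 below. Elovl6 rose, none fell and 13 did not pass. There were 5 members higher at an unadjusted p under 0.05, namely Elovl6, Elovl5, Fads1, Fads2 and Acacb, and none was lower, beside 6.51% of all genes higher and 6.16% lower. DB2313 arrays lay entirely above vehicle arrays for 7 of the 14 and entirely below for 3, beside 9.75% of all genes above and 9.55% below. Of the 14, 11 lay above the median signal of genes, while these shares include dim genes. Without vehicle replicate 3 the median was 0.07. Whether the fatty acid and sterol enzymes differ as groups was not tested.

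The steps that make palmitate differed little. Acly, which supplies cytosolic acetyl-CoA from citrate, had 9.77, 9.79 and 9.76 with DB2313 against 9.68, 9.64 and 9.65 with vehicle. The groups were tight and apart, with a log2 difference of 0.12 (interval -0.01 to 0.25, adjusted p = 0.437). Acaca, the cytosolic acetyl-CoA carboxylase that makes malonyl-CoA for synthesis, had 7.77, 7.72 and 7.72 with DB2313 against 7.65, 7.66 and 7.61 with vehicle. Its log2 difference was 0.09 (interval -0.04 to 0.23), again with separate groups and no call. Acacb, the mitochondrial carboxylase whose malonyl-CoA restrains fatty acid oxidation, had a log2 difference of 0.23 (interval 0.02 to 0.44, adjusted p = 0.343). Fasn, the synthase itself, had 9.71, 9.66 and 9.71 with DB2313 against 9.80, 9.74 and 9.74 with vehicle. Its DB2313 arrays all lay below the vehicle arrays, with a log2 difference of -0.06 (interval -0.20 to 0.07) and no call.

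The elongases were led by Elovl6, which lengthens palmitate towards stearate and is an SREBP target in mouse liver. Its signal was 6.21, 6.11 and 6.21 with DB2313 against 5.53, 5.66 and 5.41 with vehicle. The lowest DB2313 array lay above the highest vehicle array by more than the range of either group. The log2 difference was 0.65 (SE 0.08, adjusted p = 0.00991), or 1.57-fold higher, and 0.42 where an offset of 32 was added to the linear signals, which damps dim genes. The call was lost without DB2313 replicate 1 (adjusted p = 0.0529), DB2313 replicate 3 (adjusted p = 0.0539) or vehicle replicate 1 (adjusted p = 0.0532). Elovl5, an elongase of polyunsaturated chains, had 10.27, 10.34 and 10.31 with DB2313 against 10.04, 10.13 and 10.10 with vehicle. All its DB2313 arrays were higher, with a log2 difference of 0.21 (SE 0.06, adjusted p = 0.172). Elovl5 passed under 3 other settings, with adjusted p of 0.0442 in the fit restricted to genes above the median signal, 0.0223 with the offset and 0.00695 with a trended and robust prior. Elovl1, which serves very long saturated chains, had -0.11, with DB2313 arrays all below the vehicle arrays. The dim Elovl7 had -0.11 with overlapping groups, and neither gene passed the threshold.

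The desaturases gave no call. Fads1, the front-end desaturase late in polyunsaturated fatty acid synthesis, had 9.30, 9.30 and 9.28 with DB2313 against 9.08, 9.21 and 9.06 with vehicle. Its DB2313 arrays were nearly equal and all higher, with a log2 difference of 0.18 (interval 0.03 to 0.33, adjusted p = 0.308). Fads2, the desaturase that opens that route, had 5.20, 5.12 and 5.31 with DB2313 against 4.42, 5.03 and 4.84 with vehicle. The groups did not overlap, though 1 low vehicle array widened the interval, from 0.10 to 0.79 around a log2 difference of 0.44 (adjusted p = 0.252), and the difference was 0.22 with the offset and 0.27 without vehicle replicate 1, the low array. Fads3 had -0.04 with overlapping groups. The Fads genes follow one another directly on chromosome 19 in the RefSeq order, as Fads3, Fads2 and Fads1. Scd1, a desaturase that makes monounsaturated chains, was dim, with 3.56, 3.42 and 3.43 under DB2313 against 3.52, 3.48 and 3.51 under vehicle. That lay below 3.89, the 0.25 quantile of all genes, so its log2 difference of -0.03 says little about a change. Its relative Scd2 was measured only in a row shared with Mir5114. That shared row was bright, from 10.06 to 10.75 over the arrays, and was not used as a member.

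The acyl-CoA synthetases, which activate fatty acids for use, had no call among the members measured. Acsl4, which prefers arachidonate and related chains, had a log2 difference of 0.13 (interval -0.07 to 0.32) with overlapping groups. Acsl5 had -0.12 (interval -0.26 to 0.03), and its DB2313 arrays lay below the vehicle arrays.

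**Figure D3:**
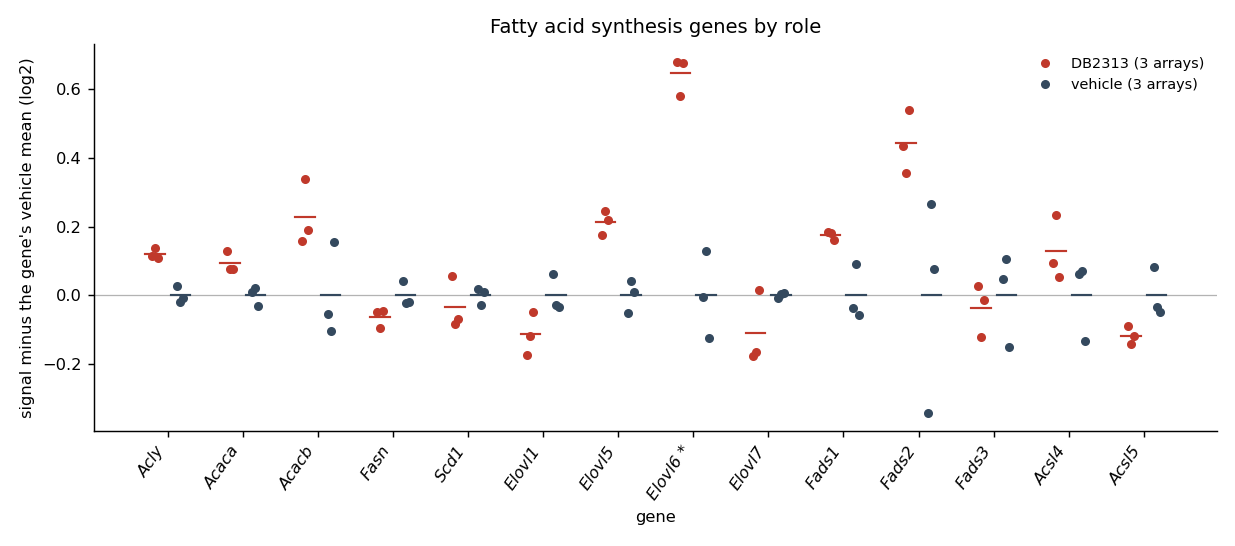
Signal on each array minus the gene's own vehicle mean (log2, vertical axis) for the 14 measured fatty acid enzymes ordered by role (horizontal axis); points are single arrays, bars are means of 3 arrays, red is DB2313, dark blue is vehicle, and the asterisk marks an adjusted p under 0.05. Elovl6 stands 0.65 above its vehicle mean, and Fads2 shows a higher DB2313 mean beside a wide vehicle spread.

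**Figure D4:**
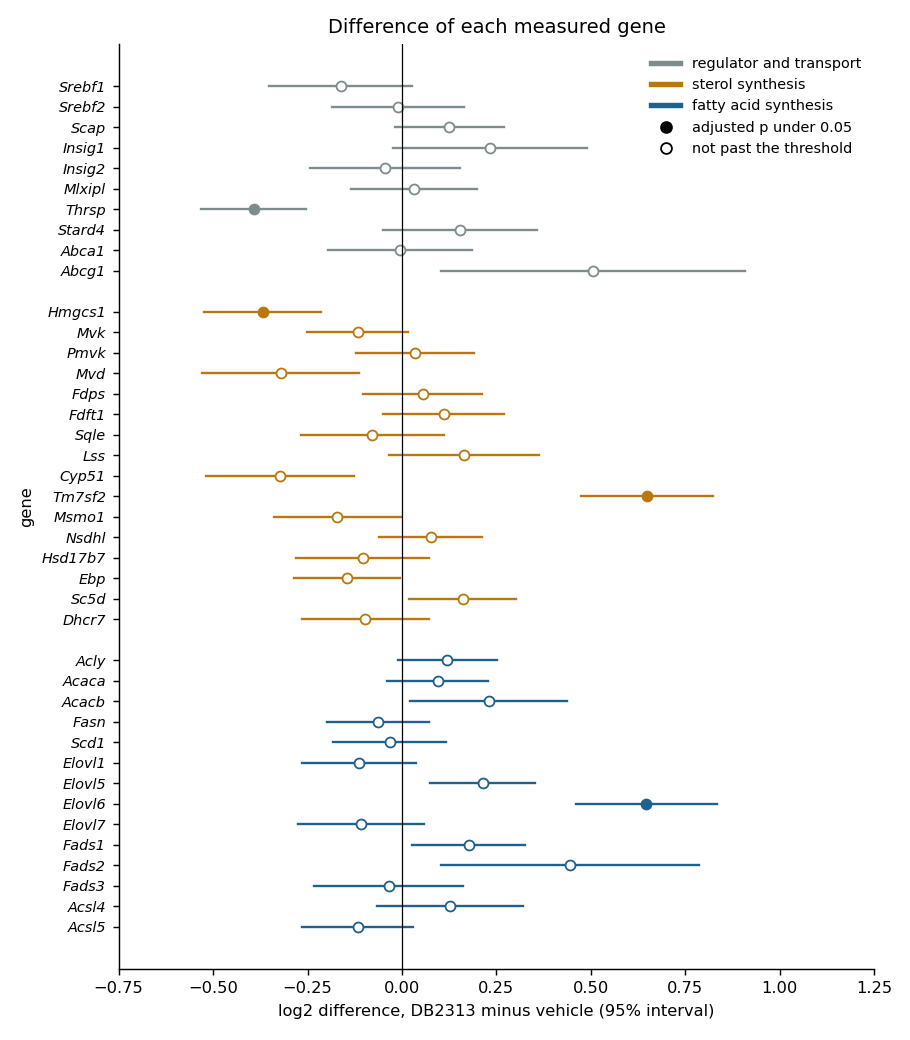
Log2 difference, DB2313 minus vehicle, with its 95% interval (horizontal axis) for each of the 40 measured genes (vertical axis), coloured by role; filled points passed an adjusted p of 0.05 and open points did not. Tm7sf2 and Elovl6, each at 0.65, lie to the right, and Thrsp at -0.39 and Hmgcs1 at -0.37 to the left.

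Other genes of the same pathways were read from a separate list. Of 26 measured genes of sterol precursors, SREBP processing, sterol trafficking and oxysterols, none passed in limma, and at an unadjusted p under 0.05 1 was higher and 2 were lower, beside 6.51% and 6.16% of all genes. The smallest p was that of Npc1, which exports cholesterol from lysosomes, at 8.53, 8.60 and 8.59 with DB2313 against 8.26, 8.32 and 8.25 with vehicle (log2 difference 0.29, adjusted p = 0.0618). The second Npc1 row was much dimmer, with a mean signal of 3.63, and had a log2 difference of 0.06. The median of the 26 genes was -0.04.

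Of 41 measured genes around fatty acid synthesis, transport and sensing, 1 rose and 3 fell, or 9.76% against 1.81% of all genes, with a median of -0.04. That list was chosen with earlier results of these data known, so its share is only a description. At an unadjusted p under 0.05 there was 1 higher and there were 7 lower, beside 6.51% and 6.16% of all genes. The riser was Hacd3, one of the dehydratases that work with elongases in the chain-lengthening cycle. It had 9.05, 8.99 and 9.01 with DB2313 against 8.49, 8.36 and 8.40 with vehicle, a log2 difference of 0.60 (SE 0.06, adjusted p = 0.00508). The lowest DB2313 array of Hacd3 lay far above its highest vehicle array. The other dehydratases Hacd1, Hacd2 and Hacd4 had log2 differences of 0.02, -0.05 and 0.10, none past the threshold. Tecr and Hsd17b12, which act in the same cycle, had -0.04 and 0.12 and did not pass. Me1, the malic enzyme that supplies NADPH for fatty acid synthesis, had a log2 difference of -1.46 (adjusted p = 0.000755), and Pparg, the nuclear receptor of fat storage, one of -1.94 (adjusted p = 0.000449). Fabp5, a cytosolic fatty acid carrier, had 5.81, 5.71 and 5.72 with DB2313 against 6.14, 6.08 and 6.07 with vehicle, a log2 difference of -0.35 (adjusted p = 0.0392). Of the other 3 Fabp5 rows 1 also had -0.35, while the others had -0.01 and -0.04, so the rows disagree.

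Of 12 measured myeloid and blast markers all but 2, Ptprc and Cd34, lay above the median signal of genes. The granule protease genes Elane, Prtn3 and Ctsg had mean signals of 13.05, 12.51 and 12.55 with DB2313 and 13.05, 12.46 and 12.51 with vehicle. Mpo, another granule gene, did not pass in limma (log2 difference 0.29, adjusted p = 0.281). It was higher at an unadjusted p under 0.05, beside 6.51% of all genes. Ptprc, the leukocyte common antigen, was dim at 3.31 with DB2313 and 3.32 with vehicle. Cd34 had 4.63 with DB2313 and 4.59 with vehicle. All 5 measured T cell and all 5 measured B cell markers lay below the median signal of genes. So did 4 of 6 hepatocyte and 4 of 6 fibroblast markers, which is near the even split that a median makes of all genes. None of these lists had a member past the threshold in limma (1 fibroblast marker had an unadjusted p under 0.05). Of 12 myeloid and blast markers 1, Cd33, fell (log2 difference -1.85, adjusted p = 0.00287 in limma), beside 0.789% of all genes passing as lower. Of 5 measured adipocyte markers, a lipogenic cell type, 4 lay below the median signal. Their mean per array ran from 4.82 to 4.86 with DB2313 and from 4.93 to 5.08 with vehicle. Of the 5, 1, Lep, fell (log2 difference -0.44, adjusted p = 0.0455), beside 0.789% of all genes passing as lower. At an unadjusted p under 0.05 there were 3 lower and 0 higher, beside 6.16% and 6.51% of all genes. The part of these markers in the differences of the lipid genes was not tested.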

How the data were processed

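RNA from 6 samples, 3 with DB2313 and 3 with vehicle, was hybridised to Affymetrix arrays. The deposited table holds log2 signals, 1 per probe set and array, as judged from its values; per the submitters' processing notes the authors used Affymetrix Expression Console, and for background correction, summarisation and genome build the sources used here give no detail. The arrays had nearly equal quartiles, with medians near 4.78, so a shift in total RNA would not be seen. Of 41345 rows, 23521 had 1 gene symbol in the platform annotation, 1814 several and 16010 no entry. The brightest row of each gene was kept, giving 22180 genes. Log2 signals were fitted with lmFit and eBayes in limma 3.58.1 (R 4.3.3), 2-sided, with Benjamini-Hochberg adjustment over all genes at 0.05, after the fit had been tested on simulated data. Precision is limited by the number of arrays, and background was not measured. Promoter sequences are from RefSeq (GRCm38.p6).

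Values in every sample are given for members past the threshold and for a set of pathway steps named whatever their values. The members, lists and motifs were chosen with earlier results of these data known. Alternatives were filters on dim genes, quantile normalization, median centring, an offset of 32, a prior with trend and robust fit, the array number as a replicate block, other row choices and each array left out. Same-numbered arrays deviated together only weakly (correlations 0.02, 0.08 and 0.01, against -0.07 to 0.05 for differently numbered arrays). The main fit did not treat the numbers as pairs, though these correlations do not settle whether they are.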

Additional observations from a re-analysis of the deposited data

How the results depend on the processing

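Only Tm7sf2 passed under every alternative tried, with log2 differences from 0.53 to 0.71; no called member changed sign. The number of genes past the threshold was 401 of 22180, against 799 of the 11090 genes above the median signal. It was 830 with the offset of 32, 920 with a trended and robust prior and 190 under the replicate block. With 1 array left out it was 136 to 187. The member counts that follow are to be read beside these totals. The sterol enzymes past the threshold, 2 in all, were 3 among genes above the median signal, 3 with the trended prior, 1 with median centring, 1 under the replicate block, and 1 whichever array was left out. The fatty acid enzymes, 1 of 14 in the main fit, were 2 of the 11 left among genes above the median signal. They were 2 with the offset and 2 with the trended prior. They were 0 under the replicate block in limma (4 at an unadjusted p under 0.05), and 0 to 1 with 1 array left out (3 to 4 unadjusted). The regulators, 1 in all, were 0 under the replicate block (3 unadjusted) and 0 with any array left out (1 to 3 unadjusted). Under that block the adjusted p was 0.0933 for Hmgcs1, 0.0560 for Elovl6 and 0.0872 for Thrsp; 4 of 6 arrays correlated best with the same-numbered array of the other group, and the labels do not say that numbers mark pairs. The medians ran from -0.103 to -0.0382 for sterol enzymes and from 0.0699 to 0.116 for fatty acid enzymes with 1 array left out. The causes of these changes were not tested. Dim rows such as Scd1, Abca1 and Elovl7 limit what can be seen of a change.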
